A study of Mus musculus with 8 samples.

Results

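Bile acids that reach the end of the small intestine are taken back up by enterocytes of the ileum, and the 7 genes described here encode the main steps of that route and the receptor circuit that reads it. The genes are Slc10a2, Fabp6, Slc51a, Slc51b, Nr1h4, Fgf15 and Nr0b2. They were chosen by name for their known roles, but with earlier results of these data known. All 7, matched by symbol, were found among the 43629 genes of the count table. In the tumor libraries 6 of the 7 were lower than in small intestine by 12.7 to 173 times (ratio of group means), and the seventh, Nr0b2, was near the detection limit in both tissues.

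As background, the apical sodium-dependent transporter Slc10a2 carries conjugated bile acids from the lumen into the enterocyte, the cytosolic protein Fabp6 binds them there, and the heteromeric transporter made of Slc51a and Slc51b releases them at the basolateral side into portal blood. Inside the cell bile acids activate the nuclear receptor FXR, encoded by Nr1h4, which acts with the retinoid X receptor. In the ileum FXR raises transcription of Fabp6, Slc51a, Slc51b, of the hormone gene Fgf15 and of Nr0b2, which encodes the corepressor SHP, and FGF15 signals to the liver to lower bile acid synthesis.

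RNA sequencing of polyadenylated RNA was deposited for 8 libraries from mice of the C57B6/129 strain, all carrying a mutation of Apc, the Wnt pathway antagonist whose loss starts intestinal tumors. The comparison is of 4 libraries of tumor with 4 libraries of small intestine, all from untreated mice, so the small intestine is also Apc mutant and no wild-type tissue was included. The mutant allele, the age of the mice, the stretch of intestine sampled and which libraries share an animal are not stated in the labels. Nothing in the labels says that the replicates of a group are separate animals, so the p-values reflect the spread among these particular libraries, and that spread could be technical.

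Library totals were 53856561 to 67371180 counts in tumor and 62347648 to 84433335 in small intestine. Expression is given as CPM, the count scaled to a common library size after TMM scaling, and, where levels of different genes are compared, as the authors' FPKM, which is also divided by gene length. Differences are log2 fold changes from edgeR (quasi-likelihood fit), with p-values adjusted by Benjamini-Hochberg over the 17029 genes that passed the low-count filter, and a gene was said to rise or fall in tumor where its adjusted p was under 0.05. This comparison called 74.3% of the genes tested, with 38.9% higher and 35.4% lower in tumor, and 33.0% had all 4 tumor values below all 4 small intestine values. Markers of the labelled tissues were read as a check. All 6 stem cell and Wnt target genes examined rose in tumor, all 18 enterocyte genes fell (the median log2 fold change was -6.43), and the summed level of the 18 was 1312 to 1997 CPM in tumor against 84428 to 106455 CPM in small intestine. Fewer enterocytes and less of these RNAs per cell cannot be told apart in bulk tissue, here and for each result that follows.

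Sequences upstream of the start sites are shown first because FXR and the intestinal factors HNF4 and GATA are known to act on these genes. RefSeq promoter windows (build GRCm38.p6, 250 bases before to 50 bases after the start) were held for 6 of the 7 genes. They were searched on both strands for an FXR-type inverted repeat (IR-1, AGGTCANTGACCT, up to 2 mismatches) and a direct repeat of the HNF4 type (DR-1, AGGTCANAGGTCA, up to 2 mismatches). Without mismatches they were searched for the single nuclear receptor hexamer AGGTCA, which is also 1 arm of both repeats. The binding letters of the GATA factors, AGATAA, were searched in the same way. So was the AP-1 site of Fos and Jun, TGANTCA. Each line gives the 250 bases before the start, 5′ to 3′ on the strand of the gene, which is the minus strand for all 5, with the matches in capitals. The start is the one in the RefSeq table. For Nr1h4 it lies 26.9 kb inside the gene's span in the annotation, so that window precedes an internal start, and for Slc51b it lies 182 bases inside. The windows lie at chr11:43601563-43601812, chr8:5105288-5105537, chr16:32487880-32488129, chr9:65422774-65423023 and chr10:89506659-89506908 in the order printed.
Fabp6: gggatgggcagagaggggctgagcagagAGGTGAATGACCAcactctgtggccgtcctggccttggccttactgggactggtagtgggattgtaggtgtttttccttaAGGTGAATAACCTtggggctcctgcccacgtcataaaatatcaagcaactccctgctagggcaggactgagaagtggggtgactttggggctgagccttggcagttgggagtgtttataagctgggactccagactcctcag
Slc10a2: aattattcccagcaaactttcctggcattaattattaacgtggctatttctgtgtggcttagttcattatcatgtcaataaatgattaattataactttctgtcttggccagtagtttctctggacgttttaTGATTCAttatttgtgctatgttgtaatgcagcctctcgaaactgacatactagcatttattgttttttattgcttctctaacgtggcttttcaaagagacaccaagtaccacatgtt
Slc51a: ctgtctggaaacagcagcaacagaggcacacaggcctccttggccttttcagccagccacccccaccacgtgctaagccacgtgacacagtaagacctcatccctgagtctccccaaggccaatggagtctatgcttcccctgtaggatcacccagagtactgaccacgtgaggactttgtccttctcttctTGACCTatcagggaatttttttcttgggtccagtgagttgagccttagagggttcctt
Slc51b: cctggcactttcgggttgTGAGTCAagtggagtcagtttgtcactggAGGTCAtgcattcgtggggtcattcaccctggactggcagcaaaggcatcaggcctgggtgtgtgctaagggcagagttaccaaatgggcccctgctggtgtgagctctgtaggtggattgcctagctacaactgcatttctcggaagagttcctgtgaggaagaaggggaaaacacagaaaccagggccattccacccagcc
Nr1h4: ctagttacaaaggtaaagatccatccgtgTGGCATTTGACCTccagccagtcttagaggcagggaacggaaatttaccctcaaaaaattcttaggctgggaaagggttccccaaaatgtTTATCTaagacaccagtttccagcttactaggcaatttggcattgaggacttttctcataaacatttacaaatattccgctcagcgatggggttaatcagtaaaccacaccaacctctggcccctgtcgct

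Fabp6, the gene with the largest difference, carried 2 matches to the FXR-type inverted repeat, at positions -222 to -210 and -142 to -130 from the start, each with 2 mismatches. Such a match was present in 1.14% of 32851 mouse promoter windows of the same length. The Slc10a2 window held an AP-1 match at -118 to -112, a match that was present in 7.81% of all windows. The Slc51a and Slc51b windows each held 1 copy of the single hexamer, found in 16.3% of windows, and that of Slc51b also held an AP-1 match at -232 to -226. Before the internal Nr1h4 start a DR-1 match (-221 to -209, 3.86% of windows), which contains the hexamer, stood beside a GATA match (-131 to -126, 11.2%). The Nr0b2 window held none of the 5 motifs. A match describes the letters of the window and is not evidence of binding, which was not measured.

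Uptake at the apical membrane depends on Slc10a2, which lies at chr8:5083219-5105351 (GRCm38, protein-coding). Slc10a2 stood at 18.7, 25.1, 17.5 and 16.5 CPM in tumor replicates 1 to 4 and at 587, 543, 183 and 844 CPM in small intestine replicates 1 to 4. The tumor libraries were close to one another, small intestine replicate 3 was far below the other 3 of its group, and the groups did not overlap. Slc10a2 fell in tumor by 4.79 ± 0.44 on the log2 scale (SE, n = 4 per group, edgeR adjusted p = 8.86e-06). The group means were 19.4 ± 3.88 and 539 ± 272 CPM (SD), so that small intestine was 27.7 times tumor.

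Fabp6 (chr11:43596049-43601540), the ileal bile acid binding protein, was the most abundant of the 7. It stood at 43.1, 63.3, 25.4 and 28.3 CPM in tumor replicates 1 to 4 and at 5410, 8633, 5359 and 8286 CPM in small intestine. Replicates 2 and 4 of small intestine were above replicates 1 and 3, tumor replicate 2 was the highest tumor library, and every tumor value was far below every small intestine value. The log2 fold change was -7.43 ± 0.42 (SE, n = 4 per group, edgeR adjusted p = 4.73e-07), and 0.564% of all genes tested had a lower one. Fabp6 made up 0.409% to 0.628% of all counts in the small intestine libraries, where it ranked 8th to 17th among all genes by counts, a rank that is not per length. In tumor it made up 0.00338% to 0.00852% of counts and ranked 2988th to 6466th.

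Export to the blood side needs both chains of the organic solute transporter. Slc51a (chr16:32474504-32487879), the alpha chain, stood at 30.6, 33.8, 30.1 and 18.4 CPM in tumor and at 2133, 2395, 2026 and 3172 CPM in small intestine. Slc51b (chr9:65412714-65422955), the beta chain, stood at 7.53, 7.83, 8.09 and 3.35 CPM in tumor and at 308, 403, 325 and 426 CPM in small intestine. For both chains tumor replicate 4 was the lowest and small intestine replicate 4 the highest library, and the groups did not overlap. Both fell, with log2 fold changes of -6.43 ± 0.28 for Slc51a and -5.77 ± 0.31 for Slc51b (SE, n = 4 per group, edgeR adjusted p = 1.16e-07 and 3.54e-07). Of all pairs among the 6 tested genes, these chains had the most alike profiles over the 8 libraries, with a root-mean-square difference of 0.35 between their centred log2 CPM values. Fabp6 and Fgf15 were the least alike, at 2.05.

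Each chain gene overlaps a neighbour on the opposite strand, and the labels do not state the strand setting of the counting, so reads from the shared stretch cannot be told apart. Pcyt1a, which overlaps Slc51a, averaged 38.0 ± 4.26 CPM in tumor libraries and 244 ± 36.4 CPM in those of small intestine (SD, n = 4). Rasl12, which overlaps Slc51b, stood at 0.716 ± 0.195 and 13.2 ± 3.60 CPM. Both overlapping genes thus fell in the same direction as their partners (log2 fold changes of -2.68 for Pcyt1a and -4.20 for Rasl12).

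**Figure D1:**
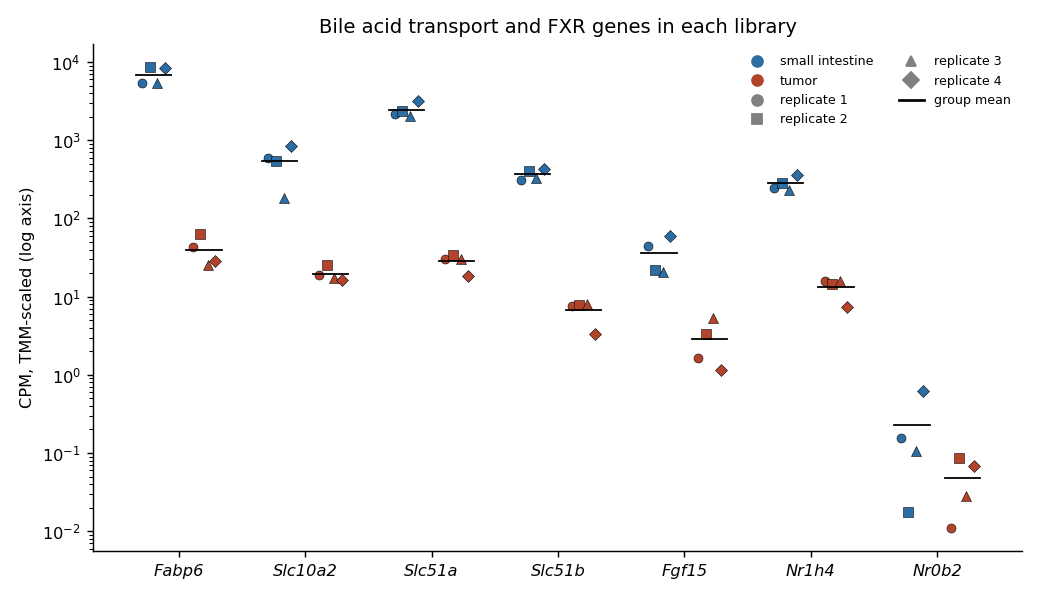
CPM on a log axis for each of the 7 genes in every library, blue for small intestine and red for tumor, with a marker shape for each replicate number and a bar at the mean of the 4 libraries. For 6 genes all tumor points lie below all small intestine points, Slc10a2 in small intestine replicate 3 (183 CPM) lies apart from the other 3, and the Nr0b2 points overlap.

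The receptor gene Nr1h4 (chr10:89454234-89533585) stood at 15.7, 14.6, 15.6 and 7.28 CPM in tumor and at 245, 286, 228 and 363 CPM in small intestine. Tumor replicate 4 was again below the other 3 tumor libraries, and the groups did not overlap. Nr1h4 fell by 4.40 ± 0.28 on the log2 scale (SE, n = 4 per group, edgeR adjusted p = 9.67e-07), and its mean in small intestine was 21.1 times that in tumor.

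Fgf15 (chr7:144896531-144900953), the enterohepatic hormone, stood at 1.65, 3.29, 5.39 and 1.16 CPM in tumor and at 44.9, 22.2, 20.5 and 58.9 CPM in small intestine. It varied more within the groups than the other tested genes apart from Slc10a2 in small intestine: the highest library was 4.64 times the lowest in tumor and 2.88 times in small intestine. Its highest tumor library, replicate 3, was the lowest tumor library for Fabp6. Fgf15 fell by 3.68 ± 0.55 on the log2 scale (SE, n = 4 per group, edgeR adjusted p = 0.000227), the smallest difference among the 6 tested genes. The antisense gene Gm26793, which overlaps Fgf15, averaged 0.0471 ± 0.0395 CPM in tumor libraries and 0.832 ± 0.460 CPM in those of small intestine.

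Nr0b2 (chr4:133553376-133556536), encoding the corepressor SHP, had 1, 7, 2 and 6 counts in tumor replicates 1 to 4 and 9, 1, 5 and 36 counts in small intestine. It did not pass the low-count filter, and 3 counts correspond to 0.0331 to 0.0630 CPM in these libraries. The groups overlapped, and small intestine replicate 4 alone held 36 of the 51 counts of its group. Without the filter the log2 fold change was -2.08 (edgeR adjusted p = 0.0825), so a difference in Nr0b2 was not detected with these counts and this spread between libraries.

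Of the 6 tested genes all 6 fell, where 35.4% of all genes tested fell. Their median log2 fold change was -5.28 against 0.07 over all genes tested. This fall was not particular to them, since all 18 enterocyte genes (median -6.43) and all 8 other distal genes read below (median -5.74) fell too. The direction and the call of each of the 6 held when any 1 library was left out, the highest edgeR adjusted p being 0.00108, for Fgf15. Per length, in FPKM, the levels in every small intestine library were in the order Fabp6, Slc51a, Slc51b, Slc10a2, Nr1h4, Fgf15, Nr0b2. Their means were 11845 ± 2868, 942 ± 149, 687 ± 95.3, 226 ± 111, 89.7 ± 15.9, 16.5 ± 8.07 and 0.118 ± 0.130 FPKM (SD, n = 4), and among neighbours in this order only the ranges of Slc10a2 and Nr1h4 overlapped. In tumor Fabp6 was still highest at 116 ± 50.3 FPKM. Slc51b at 21.6 ± 6.88, Slc51a at 20.4 ± 4.65 and Slc10a2 at 15.7 ± 2.90 FPKM had overlapping ranges, and their order was different in tumor replicate 4, followed by Nr1h4 at 7.37 ± 2.09, Fgf15 at 2.68 ± 1.76 and Nr0b2 at 0.0767 ± 0.0467 FPKM.

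The 2 chains of the exporter work as 1 transporter, so their ratio was compared within each library. The FPKM ratio of Slc51b to Slc51a was 1.15, 1.05, 1.12 and 0.826 in tumor replicates 1 to 4 and 0.706, 0.822, 0.755 and 0.651 in small intestine. The ratio was higher in every tumor library, although tumor replicate 4 and small intestine replicate 2 nearly met. The means were 1.04 ± 0.146 and 0.734 ± 0.0730 (SD, n = 4), a difference of 0.49 on the log2 scale, with p = 0.0286 in an exact two-sided permutation test, which is the smallest p that 4 against 4 libraries can give. FPKM values also depend on the lengths and transcript models that the authors used.

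Another ratio, chosen after the values had been seen, sets the intracellular binding protein against the apical transporter. The FPKM ratio of Fabp6 to Slc10a2 was 7.99, 9.22, 5.33 and 5.93 in tumor and 38.8, 67.1, 119 and 37.8 in small intestine. All tumor values were below all small intestine values, and the highest small intestine ratio came from replicate 3, whose Slc10a2 level was low. The means were 7.12 ± 1.80 and 65.7 ± 38.1 (SD, n = 4), a log2 difference of -3.07, which is a description and was not tested. With any 1 library left out both ratios kept their direction.

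**Figure D2:**
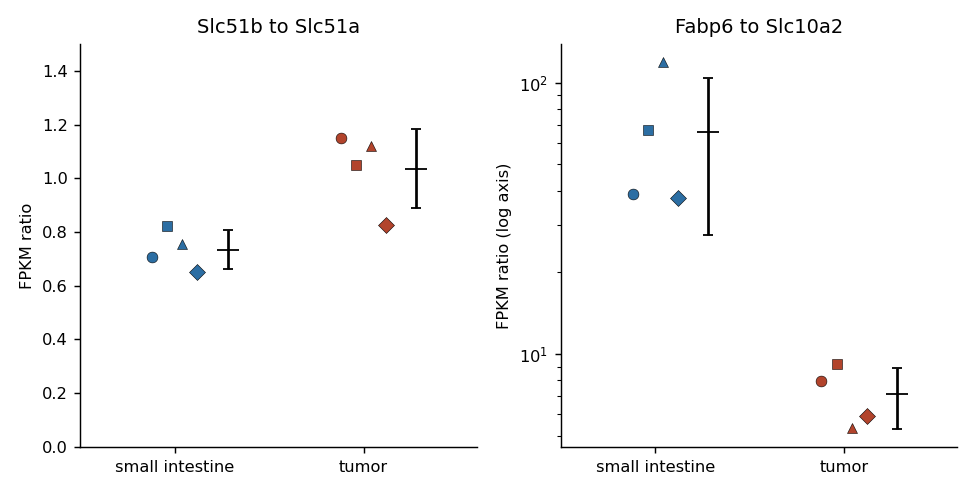
FPKM ratio of Slc51b to Slc51a (left, linear axis from 0) and of Fabp6 to Slc10a2 (right, log axis) in each library, with a marker shape for each replicate number and the mean ± SD of 4 libraries beside the points. The tumor ratios lie above those of small intestine on the left (0.826 to 1.15 against 0.651 to 0.822) and below them on the right (5.33 to 9.22 against 37.8 to 119).

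How far these genes fell depended on what they were set against. TMM assumes that most genes do not differ, and without it, using library totals only, the median over all genes was a log2 fold change of 0.93, with 62.0% of genes called higher and 17.6% lower in tumor. Under library totals all 6 genes still fell, with log2 fold changes of -6.56 (Fabp6), -5.56 (Slc51a), -4.90 (Slc51b), -3.91 (Slc10a2), -3.53 (Nr1h4) and -2.81 (Fgf15). Scaled to 10 pan-epithelial genes, which moved the median of all genes to 1.04 and called 63.0% higher and 15.4% lower, all 6 fell as well, from -6.47 for Fabp6 to -2.77 for Fgf15.

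Scaled to the 18 enterocyte genes, which asks whether a gene fell more or less than those genes did, the median of all genes stood at 6.29, and 98.0% of genes were called higher and 0.587% lower in tumor. On that scale Fabp6 alone of the 6 was lower, by 1.27 ± 0.25 (SE, adjusted p = 0.000142). Slc51a (-0.21, adjusted p = 0.307) and Slc51b (0.43, adjusted p = 0.149) did not pass the test. Slc10a2 was higher by 1.43 (adjusted p = 0.000419), Nr1h4 by 1.83 (adjusted p = 6.80e-06) and Fgf15 by 2.55 (adjusted p = 0.000103), all by edgeR with n = 4 per group. Fabp6 thus fell further than the enterocyte genes did on average, and Slc10a2, Nr1h4 and Fgf15 fell less far. Under TMM the 18 enterocyte genes ranged from -8.75 to -2.41 on the log2 scale, and all 6 bile acid genes lay within that range.

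**Figure D3:**
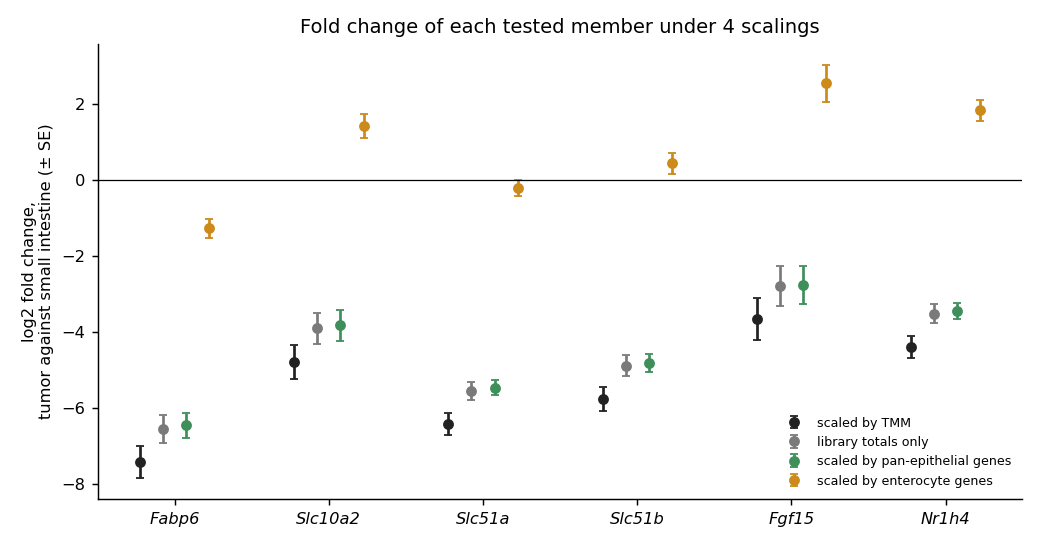
Log2 fold change of tumor against small intestine, with its standard error, for the 6 tested genes under TMM, library totals, scaling to pan-epithelial genes and scaling to enterocyte genes. The first 3 scalings put all 6 genes below 0, and scaling to enterocyte genes leaves Fabp6 (-1.27) below 0 and puts Slc10a2, Fgf15 and Nr1h4 (1.43 to 2.55) above it.

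Within each tissue, single libraries were lowest or highest for most of the tested genes. In tumor, replicate 4 was the lowest library for 5 of the 6 tested genes, all but Fabp6. The same library had the lowest summed level of the pan-epithelial genes (6720 CPM against 8625 to 9056 CPM in the other 3) and of 7 goblet cell genes (776 CPM against 2166 to 3018 CPM). In small intestine, replicate 4 was the highest library for 5 of the 6 genes and replicate 3 the lowest for 5. The part of these marker differences in the levels of the 6 genes was not tested.

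Several of the bile acid genes are known for their role in the ileum, so other markers of position along the small intestine were read in the same libraries. The summed level of 8 other distal genes, among them Cubn and Amn, which form the ileal receptor for vitamin B12, was 10288, 8649, 6203 and 12263 CPM in small intestine replicates 1 to 4. That of 10 proximal genes, among them the lactase gene Lct and the incretin gene Gip, was 233, 227, 633 and 359 CPM. Small intestine replicate 3, the library with the lowest Slc10a2, was thus the lowest for distal and the highest for proximal genes. Cubn stood at 2122, 1258, 749 and 2495 CPM in these 4 libraries and Lct at 91.9, 56.7, 332 and 80.2 CPM. Both went the same way as the sums, but not all genes of the lists did. Replicate 3 was lowest for the distal genes Tmigd1, Nts, Slc7a9 and Clec2h as well, but highest for Gcg. It was highest for the proximal genes Gata4, Gip, Cck and Ghrl as well, but lowest for Slc40a1, Cybrd1, Slc46a1 and Onecut2. Amn and Pyy were lowest, and Fabp1 highest, in another library. Most of these genes were named here after their values were seen. Fabp6 did not follow the order of the distal sum, since replicate 1 (5410 CPM) was as low as replicate 3 (5359 CPM).

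In tumor each of the 8 other distal genes fell, by log2 fold changes from -7.20 to -4.22 (median -5.74), and their summed level was 98.7 to 185 CPM. The B12 receptor genes were among them, with Cubn at -7.20 ± 0.44 and Amn at -6.97 ± 0.19 (SE, n = 4 per group, edgeR adjusted p = 7.28e-07 and 1.78e-08). Of the 10 proximal genes 6 fell and 2 rose, and under library totals 5 fell and 4 rose. Lct fell from 140 ± 129 to 0.0851 ± 0.0304 CPM and Gip from 23.7 ± 10.1 to 0.0215 ± 0.00723 CPM. The proximal factor gene Onecut2 rose from 0.257 ± 0.228 to 141 ± 34.1 CPM, and the duodenal iron reductase gene Cybrd1 rose by 2.25 on the log2 scale. The summed level of the 10 proximal genes was 167 to 243 CPM in tumor, most of it from Onecut2. The labels do not say whether tumor and small intestine came from the same stretch. The part of the stretch sampled in these differences, and in those of the bile acid genes, was not tested. Of 8 colon genes 4 passed the filter: Slc26a3 and Car4, which also serve the ileum, were among the 3 that fell (201 ± 24.0 to 2.39 ± 0.572 CPM and 334 ± 118 to 13.6 ± 11.2 CPM), and the water channel gene Aqp8 rose from 0.0216 ± 0.0326 to 2.42 ± 1.12 CPM. All these calls held with 1 library left out, but the log2 fold change moved by over 1.5-fold for Lct (-10.62, or -9.75 without small intestine replicate 3), Cybrd1 (2.25, or 3.08 without small intestine replicate 1), Onecut2 (9.07, or 9.78 without small intestine replicate 2), Car4 (-4.62, or -5.35 without tumor replicate 3) and Aqp8 (6.63, or 8.25 without small intestine replicate 4).

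**Figure D4:**
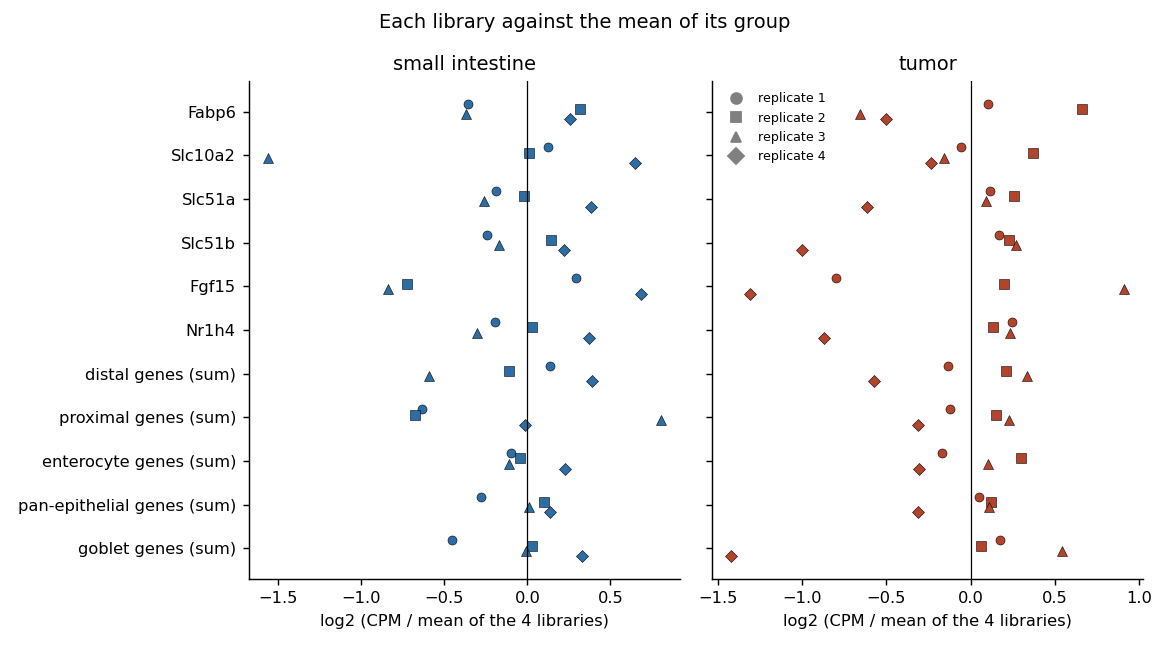
Log2 of the CPM of each library over the mean of its 4-library group, for the 6 tested genes and for the summed levels of 5 marker lists, in small intestine (left) and tumor (right). Small intestine replicate 3 is lowest for Slc10a2 and the distal genes and highest for the proximal genes, and tumor replicate 4 is lowest for every gene and list shown apart from Fabp6.

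Transcription factors known for ileal or enterocyte genes were mostly lower as well. Of 17 such genes 15 fell and none rose under TMM (median -2.32), and 12 fell and 3 rose under library totals. The shares of all genes that fell were 35.4% and 17.6%. The largest falls were those of Ppara, a fatty acid receptor (22.6 ± 7.97 to 0.752 ± 0.180 CPM), and Hnf4g, an enterocyte nuclear receptor (241 ± 31.7 to 10.6 ± 0.790 CPM).

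Among 11 tested partners and coregulators of FXR 9 fell and 2 rose under TMM, with a median of -0.67, but under library totals 3 fell and 5 rose, with a median of 0.20. Rxra, which encodes a retinoid X receptor, fell under both, from 353 ± 42.3 to 56.8 ± 2.32 CPM, a log2 fold change of -2.64 ± 0.11 (SE, n = 4 per group, edgeR adjusted p = 9.66e-08). Rxrb, which encodes another retinoid X receptor, was named after its values were seen. Its log2 fold change under TMM was only -0.36. Per length, mean Rxrb was above mean Rxra in tumor (20.6 against 13.2 FPKM) and below it in small intestine (13.5 against 42.8 FPKM). The coactivator Ppargc1a fell by 1.59 on the log2 scale. The arginine methyltransferase Carm1 rose by 0.37. Rxra thus differed by less than Nr1h4 did, at -4.40.

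Of 8 other genes that FXR is known to induce in intestine or liver, 5 fell, 1 rose and 2 did not pass the test (median -1.78). Over all genes tested 35.4% fell and 38.9% rose. The largest falls were those of the oxidative stress gene Osgin1 (-3.90 ± 0.23) and of Abcc2 (-3.40 ± 0.32), an apical exporter of organic anions (SE, n = 4 per group, edgeR adjusted p = 6.13e-07 and 1.01e-05). The syndecan gene Sdc1 rose by 0.60 (adjusted p = 0.00932), with overlapping groups. All 6 tested members of the bile acid set fell further than the median of these 8.

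Transport genes outside the ileal route went both ways. Of 12 genes for other bile acid carriers 5 passed the filter, 3 of them fell and 2 rose, where 35.4% of all genes tested fell and 38.9% rose. The basolateral exporters did not go one way: Abcc3 fell, from 149 ± 71.4 to 25.1 ± 4.52 CPM, and was named after its values were seen. Abcc4 and Abcc1 rose, Abcc4 from 3.23 ± 0.596 CPM in small intestine to 111 ± 8.48 CPM in tumor (5.11 ± 0.16) and Abcc1 from 7.74 ± 1.94 to 84.4 ± 5.16 CPM (3.45 ± 0.19). Abcg2, an apical exporter, and Slco2b1, an uptake carrier, fell, with log2 fold changes of -5.02 and -4.30. Both carry many organic anions. Per length, Abcc4 stood at 22.2 ± 2.02 FPKM and Slc51a at 20.4 ± 4.65 FPKM in tumor, a difference within 1 SD, whereas in small intestine they stood at 0.378 ± 0.0695 and 942 ± 149 FPKM. The liver carriers Slc10a1 and Abcb11 did not pass the filter, with means of at most 0.0725 CPM in either tissue and no library above 0.156 CPM.

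Among bile acid receptors other than FXR, 3 of 6 tested genes fell and 1 rose, where 35.4% of all genes tested fell and 38.9% rose. So few genes cannot be told apart from those shares. Vdr, the vitamin D receptor that also binds lithocholic acid, stood at 537 to 551 CPM in the small intestine libraries and at 13.9 to 19.1 CPM in tumor, and fell by 4.99 ± 0.13 on the log2 scale (SE, n = 4 per group, edgeR adjusted p = 1.78e-08). Nr1i3, the xenobiotic receptor CAR, fell by 5.41, from 3.44 ± 1.37 to 0.0792 ± 0.0389 CPM. It had only 26 counts in all tumor libraries, so the size of that fall is uncertain. S1pr2, a membrane receptor for conjugated bile acids, rose from 5.55 ± 2.21 to 15.1 ± 1.25 CPM, a log2 fold change of 1.44.

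Receptor genes for FGF15 went both ways in tumor, where the hormone gene was lower. Of 6 tested genes of FGF15 reception and secretion 4 rose and 2 fell, under TMM, library totals and pan-epithelial scaling alike. Of all genes tested, 38.9%, 62.0% and 63.0% rose under these 3 scalings. Under the last 2 the count of 4 of 6 is thus near the share of all genes. Fgfr4, the main FGF15 receptor of liver, rose from 8.13 ± 2.56 to 31.1 ± 9.25 CPM (1.94 ± 0.30) and Fgfr1 from 1.56 ± 0.997 to 26.6 ± 2.49 CPM (4.08 ± 0.41). Klb, the coreceptor that FGF15 needs, was named after its values were seen and stood at 0.640, 0.817, 0.698 and 2.64 CPM in tumor and at 0.556, 0.265, 0.105 and 0.276 CPM in small intestine. It was called higher in tumor by 1.98 on the log2 scale (edgeR adjusted p = 0.0154), and by 1.28 (adjusted p = 0.0424) without tumor replicate 4, its highest library. Malrd1, a regulator of FGF15 output from enterocytes, fell from 447 ± 111 to 16.8 ± 4.15 CPM, and Fgfr3 fell by 1.73 on the log2 scale. In the same tumor libraries 6 of 6 fibroblast genes and 4 of 4 endothelial genes rose, with summed levels of 1155 to 1859 and 133 to 175 CPM against 17.1 to 61.0 and 6.24 to 21.2 CPM in small intestine. Their part in the receptor levels was not tested.

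Genes of bile acid synthesis and conjugation went both ways: of 7 tested, 3 rose and 4 fell, where 38.9% of all genes tested rose and 35.4% fell. Cyp7a1, the rate-limiting enzyme of the classical pathway in liver, had 0 counts in all 8 libraries. Hsd3b7, a sterol dehydrogenase, rose from 41.8 ± 5.54 to 96.0 ± 6.33 CPM. Baat, the enzyme that conjugates bile acids to taurine or glycine, fell from 18.4 ± 7.17 to 0.138 ± 0.115 CPM, and Acox2, a peroxisomal oxidase, from 23.8 ± 10.8 to 3.65 ± 0.798 CPM. Of 7 hepatocyte markers 5 passed the filter, and 2 rose and 1 fell in tumor. Their summed level was 54.9 to 146 CPM against 6.06 to 10.4 CPM. Nearly all of the tumor sum was albumin (Alb), at 52.4 to 141 CPM in tumor and at 0 in 3 of 4 small intestine libraries. The other gene that rose, Ahsg, averaged 0.540 ± 0.171 CPM in tumor, and Apoh fell from 1.10 ± 0.252 to 0.219 ± 0.183 CPM. Fga and Fgb were at most 0.0694 CPM in any library. The part of liver-type transcripts in these levels and in those of Fgfr4 was not tested.

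**Figure D5:**
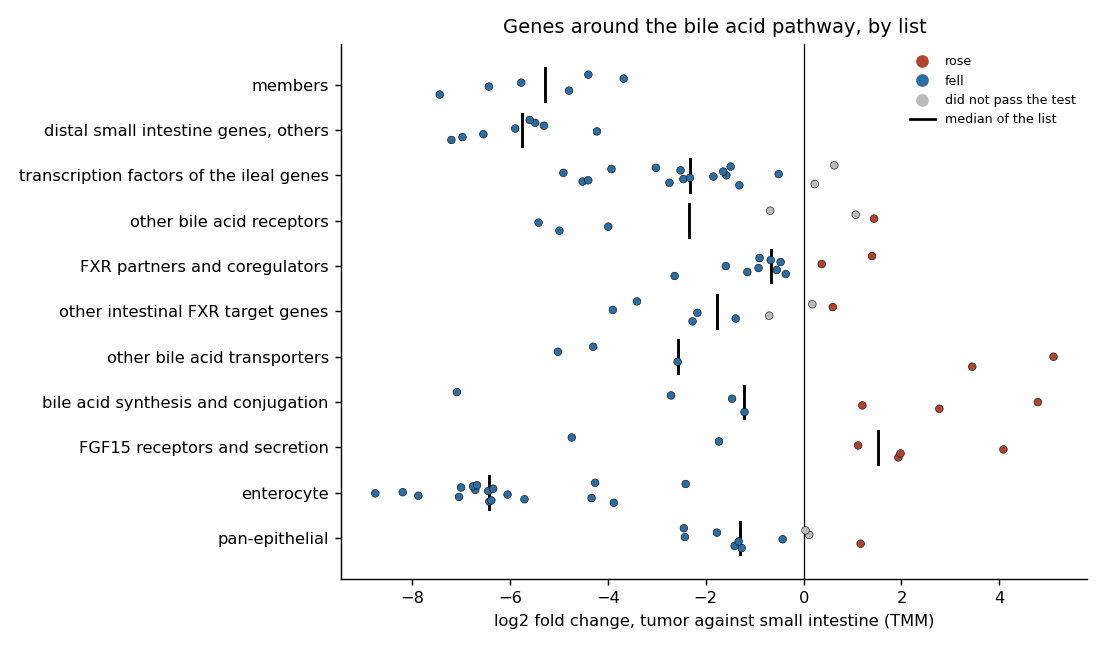
Log2 fold change of tumor against small intestine (TMM) for each tested gene of 11 lists, with 1 point for each gene, red for genes that rose, blue for genes that fell, grey for genes that did not pass the test, and a black bar at the median. The 6 tested members (median -5.28) lie with the other distal genes (-5.74) and the enterocyte genes (-6.43), and the FGF15 receptor list has a median above 0 (1.53).

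For each tested gene the 3 other genes with the most alike profile over the 8 libraries were taken, by the root-mean-square difference of centred log2 CPM among genes with a mean of at least 1 CPM. Most of this likeness comes from the shared difference between the tissues. The closest were Styk1 to Nr1h4 (0.13), Zg16 to Slc51b (0.15) and Cyp4f14 to Slc51a (0.17). Cdhr2, a microvillus protocadherin, was also close to Nr1h4 (0.16). The nearest genes to Fabp6 (Ocm, 0.35), Slc10a2 (Iyd, 0.34) and Fgf15 (Slc17a1, 0.30) were less alike. Zg16, a secreted lectin of goblet cells, stood at 5882 ± 1261 CPM in small intestine and 100 ± 36.8 CPM in tumor.

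The nearest tested genes on either side of the 7 did not share their pattern as a group. Of the 14 neighbours 6 fell, 4 rose and 4 did not pass the test, where 35.4% of all genes tested fell and 38.9% rose. Zdhhc19, 8.39 kb from Slc51a, had 1, 2, 2 and 1 counts in tumor and 529, 281, 227 and 596 counts in small intestine, and its log2 fold change was -8.51. Slc17a8, 40.4 kb from Nr1h4, fell by 4.88. Fgf3, which encodes another growth factor of the same family 52.1 kb from Fgf15, had 1803, 1760, 1395 and 1113 counts in tumor and 0 in all small intestine libraries. Against a floor of 3 counts per library Fgf3 was at least 335-fold higher in tumor, while Fgf15 beside it fell.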

How the data were processed

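Polyadenylated RNA from 4 tumor and 4 small intestine libraries of Apc mutant mice was sequenced. The authors deposited whole-number counts per gene, not normalized, and FPKM values per gene, which the authors had corrected for depth and gene length. Summed over all genes, FPKM was 502777 to 525873 in tumor libraries and 1484110 to 10163700 in those of small intestine. The reason was not examined, so FPKM levels may not be comparable between libraries. The build GRCm38 and the tools HTSeq 0.6.0, Cufflinks 2.2.1, STAR and FastQC are named, per the submitters' processing notes. Strand setting, annotation release and the handling of shared reads are not given in the labels. Groups come from the tissue labels.

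Counts were filtered with filterByExpr, scaled with TMM and tested with edgeR 4.0.16 (glmQLFit, glmQLFTest, R 4.3.3), with Benjamini-Hochberg adjustment over the 17029 genes tested and a threshold of 0.05. Tissue was the only term. The standard error given with an edgeR log2 fold change is its absolute value divided by the square root of the F statistic of the test. Alternatives were DESeq2 1.42.0, limma 3.58.1 on log2(FPKM + 1) or log2(FPKM + 0.1), other scalings and filters, a minimum fold of 2, a replicate block and leaving out each library. The fits were tested on simulated data, where edgeR and limma kept false calls near the threshold and DESeq2, used only as an alternative, gave a larger share of false calls than the threshold sets. The Slc51b to Slc51a ratio was tested with an exact permutation test (scipy 1.17.1). Reads carry no molecular identifiers, so a floor of 3 counts covers counting error only. No 2 libraries of a group were duplicates (lowest chi-square divided by its degrees of freedom 38.9).

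The members and lists were chosen with earlier results of these data known. From each list that is not a cell type list, up to 2 called genes with the largest rise and 2 with the largest fall among those with a mean of at least 1 CPM were named, plus the 3 genes most like each tested member. Of 197 listed symbols 196 were found. Some genes that this rule names are not reported here. Symbols and coordinates were looked up by identifier in a GRCm38 annotation, and promoter windows from RefSeq (GRCm38.p6).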

Additional observations from a re-analysis of the deposited data

Results flagged for a closer look

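In 13 of 118 groups of 4 libraries, 1 library lay far from the other 3. Chance gives about 1 in 20 for separate groups, but these are not separate, since they include 18 genes picked because their profiles are like those of the bile acid genes. Among the bile acid genes, tumor replicate 4 was low for Slc51b (3.35 CPM against 7.53 to 8.09 CPM) and for Nr1h4 (7.28 CPM against 14.6 to 15.7 CPM). The same library was low for Sdc1 (398 CPM), Fgfr3 (3.62 CPM), Erich4 (0.913 CPM) and Cdhr2 (86.6 CPM), the last 2 being among the genes picked for likeness to Slc51b and Nr1h4, so that they repeat the same pattern. Both falls held without it, at -5.50 or lower for Slc51b and -4.15 or lower for Nr1h4 on the log2 scale over all leave-one-out fits.

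Small intestine replicate 3 was high for Lct (332 CPM against 56.7 to 91.9 CPM) and low for Iyd (17.7 CPM against 34.0 to 36.5 CPM), the gene picked as most like Slc10a2. Small intestine replicate 4 was high for Cyp4f14 (2758 CPM) and Bmp8a (12.2 CPM), and replicate 2 was high for Vdr (551 CPM against 537 to 538 CPM, a gap that is small beside the level). In tumor, replicate 2 was high for Cybrd1 (8.69 CPM) and replicate 3 for Car4 (30.3 CPM against 6.73 to 8.94 CPM).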

How the results depend on the processing

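Of the results for the 6 tested bile acid genes and 50 other named genes, direction and call were unchanged for all 56 with DESeq2 size factors, library totals, TMM without the 50 most abundant genes, pan-epithelial scaling, a minimum mean of 1 CPM, DESeq2's Wald test and each library left out in turn, and for the 52 genes with FPKM values above the filter in limma with a pseudocount of 1 or 0.1. Over these leave-one-out fits the log2 fold changes ran from -7.70 to -7.22 for Fabp6, -5.09 to -4.49 for Slc10a2, -6.51 to -6.23 for Slc51a, -5.85 to -5.50 for Slc51b, -4.12 to -3.35 for Fgf15 and -4.49 to -4.15 for Nr1h4. With a minimum fold of 2, 6732 of 17029 genes were called instead of 12649, and Carm1 (0.37) and Sdc1 (0.60) lost their calls. Fgfr3 lost its call in FPKM without a filter (-0.60, adjusted p = 0.0673).

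Scaling to the enterocyte genes, which by construction sets their fall to 0, left 1 of the 6 bile acid genes lower in tumor. Slc51a (-0.21) lost its call there, Slc10a2 (1.43), Slc51b (0.43), Fgf15 (2.55) and Nr1h4 (1.83) changed sign, and so did 26 other named genes. Their log2 fold changes on that scale were Rxra 3.60, Ppargc1a 4.65, Osgin1 2.33, Abcc2 2.81, Abcg2 1.18, Slco2b1 1.92, Acox2 3.56, Nr1i3 0.80, Vdr 1.23, Malrd1 1.48, Fgfr3 4.50, Ppara 1.33, Hnf4g 1.69, Car4 1.59, Iyd 1.66, Sgk2 1.20, Gsdme 1.21, Zg16 0.32, Erich4 0.65, Prap1 0.66, Slc17a1 2.85, Bmp8a 2.57, D130043K22Rik 2.07, Styk1 1.99, Cgref1 1.71 and Cdhr2 1.58.

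The labels do not say whether the replicate numbers pair the samples. The correlations of deviations from the group means between same-numbered libraries were -0.0672, -0.0763, 0.0136 and -0.159. Those between differently numbered libraries ran from -0.0803 to 0.137. Such values cannot show whether same-numbered libraries share an animal. A fit with the replicate number as a block called 11893 genes, all 6 bile acid genes among them, and changed none of the 56 calls. For the Slc51b to Slc51a ratio the paired form of the block, an exact sign-flip permutation test over the 4 same-numbered pairs, gave 0.49 on the log2 scale with p = 0.125, the smallest p it can give. With 1 library left out this ratio ranged from 0.44 to 0.60, with an exact permutation p = 0.0571, also the smallest possible, so these p-values say nothing about stability. The untested Fabp6 to Slc10a2 level ratio ranged from -3.28 to -2.73 on the log2 scale in the same way. Low counts limit Nr0b2, which had 16 counts in all tumor libraries and 51 in small intestine.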
